A study of Mus musculus with 2 samples.

Results

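The genes described here are autosomal genes of meiosis and of the piRNA pathway, taken as every entry of the deposited expression table whose gene name is on a list of 39 such genes. Of the 39 genes, 38 had an entry and 1, Rpl10l, had none. Piwil4 had 2 entries at the same locus, so 39 entries of 29126 in the table were used. The rule uses gene names and no measured value, but the list was written with earlier results of these data known. Mouse embryonic fibroblasts (MEFs, strain unknown) of the genotypes Dnmt1+/+ and Dnmt1-/- each gave 1 mRNA-seq library, prepared so as to keep the strand of the RNA. The cells called Dnmt1-/- carry on both chromosomes a hypomorphic form of Dnmt1, the gene for the maintenance DNA methyltransferase. The Dnmt1+/+ cells are their controls, and both lines are homozygous null for Trp53, which encodes p53. Each genotype is represented by 1 cell line and 1 library, so no difference has a replicate check, the genotype cannot be told apart from other differences between the lines, and no p-value is given.

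In meiosis germ cells reduce their chromosome set. Homologous chromosomes are held on protein axes built on meiotic cohesin, are broken and repaired by recombination enzymes, and are zipped together by the synaptonemal complex. piRNAs are small RNAs bound by PIWI proteins, and with Tudor domain proteins and RNA helicases they silence transposons in the male germline. Fibroblasts do neither, and many germline genes of this kind are known to carry promoter DNA methylation in somatic cells.

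The values are RPKM, in which reads are scaled to the length of the transcript and to the mapped reads of the library, with 1 value per entry and library. They carry no read counts, so the number of reads behind a value was not available in the table, and a gene with no signal is said to be listed at 0. A gene was called higher or lower where it had status OK (the label that Cuffdiff gives an entry it could compare), at least 1 RPKM in one library or the other, and a change of more than 2-fold after 0.1 was added to each RPKM. This scale, log2(RPKM + 0.1), makes the changes of low genes look smaller than they are. Of the 39 entries, 28 had status OK and 11 had NOTEST, those of Hormad1, Rec8, Dmc1, Spo11, Piwil1, Mael, Ddx4, Tdrd1, Tdrd5, Tdrd6 and Sohlh1. Dnmt1 itself was at 65.2 RPKM in Dnmt1+/+ and at 14.5 in Dnmt1-/-. The lines also differed in sex-linked RNA, with Xist at 0.00648 and 37.0 RPKM and the Y-linked Ddx3y at 13.9 RPKM and listed at 0. What part this has in the values of the germline genes was not tested. Of 10 fibroblast markers, Vim was at 2269 and 1873 RPKM and Col1a1 at 1448 and 898 RPKM. Thy1 fell from 4.84 to 0.129 RPKM, Col1a2 from 1241 to 475.9 and Fn1 from 663.7 to 235.5, while Pdgfra rose from 6.95 to 18.7 and S100a4 from 289.6 to 1262. None of 22 ubiquitously expressed genes was listed at 0 in either library, and 21 of them were within 2-fold, with Actb higher at 1759 and 3779 RPKM.

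The 38 genes fell into unlike groups. In Dnmt1-/- MEFs, 7 were called higher, namely Tex19.1, Sohlh2, Mov10l1, Stag3, Syce1, Tex101 and Slc25a31, and 0 were called lower. Another 4 genes, Syce2, Tdrd7, Ddx25 and Prdm9, reached 1 RPKM and stayed within 2-fold. A further 10 genes were under 1 RPKM in both libraries with at least 0.1 RPKM in one of them, and 17 were under 0.1 RPKM in both. Among all 11244 genes with status OK and at least 1 RPKM in one library, 8.47% were called higher and 10.9% lower. Only the 4 genes within 2-fold had at least 1 RPKM in Dnmt1+/+ and could have been called lower, so the count of 0 lower says little. The rule on 1 RPKM keeps a gene that is silent in Dnmt1+/+ MEFs just when it is high in Dnmt1-/-, so the 7 genes are also given against genes silent in Dnmt1+/+. Of the 39 entries, 31 were under 0.1 RPKM in Dnmt1+/+, and 6 of these 31 (19.4%) reached 1 RPKM in Dnmt1-/-. Over all entries with a gene symbol and any status, 8272 were under 0.1 RPKM in Dnmt1+/+ and 2.36% of them reached 1 RPKM in Dnmt1-/-. In the reverse direction, 18 entries of these genes were under 0.1 RPKM in Dnmt1-/-, of which 0 had 1 RPKM in Dnmt1+/+, against 1.65% of all 8084 such entries. With 18 entries, a count of 0 cannot be set apart from that share. Summed over the 39 entries, the RPKM was 19.2 in Dnmt1+/+ and 108.6 in Dnmt1-/-. The 7 genes called higher held 3.22% of the sum in Dnmt1+/+ and 76.5% of it in Dnmt1-/-. They were called on this same difference, so a small share in Dnmt1+/+ and a large one in Dnmt1-/- follow from the choice. In RNA from whole cultures, a low level in every cell and a high level in a few cells cannot be told apart.

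**Figure D1:**
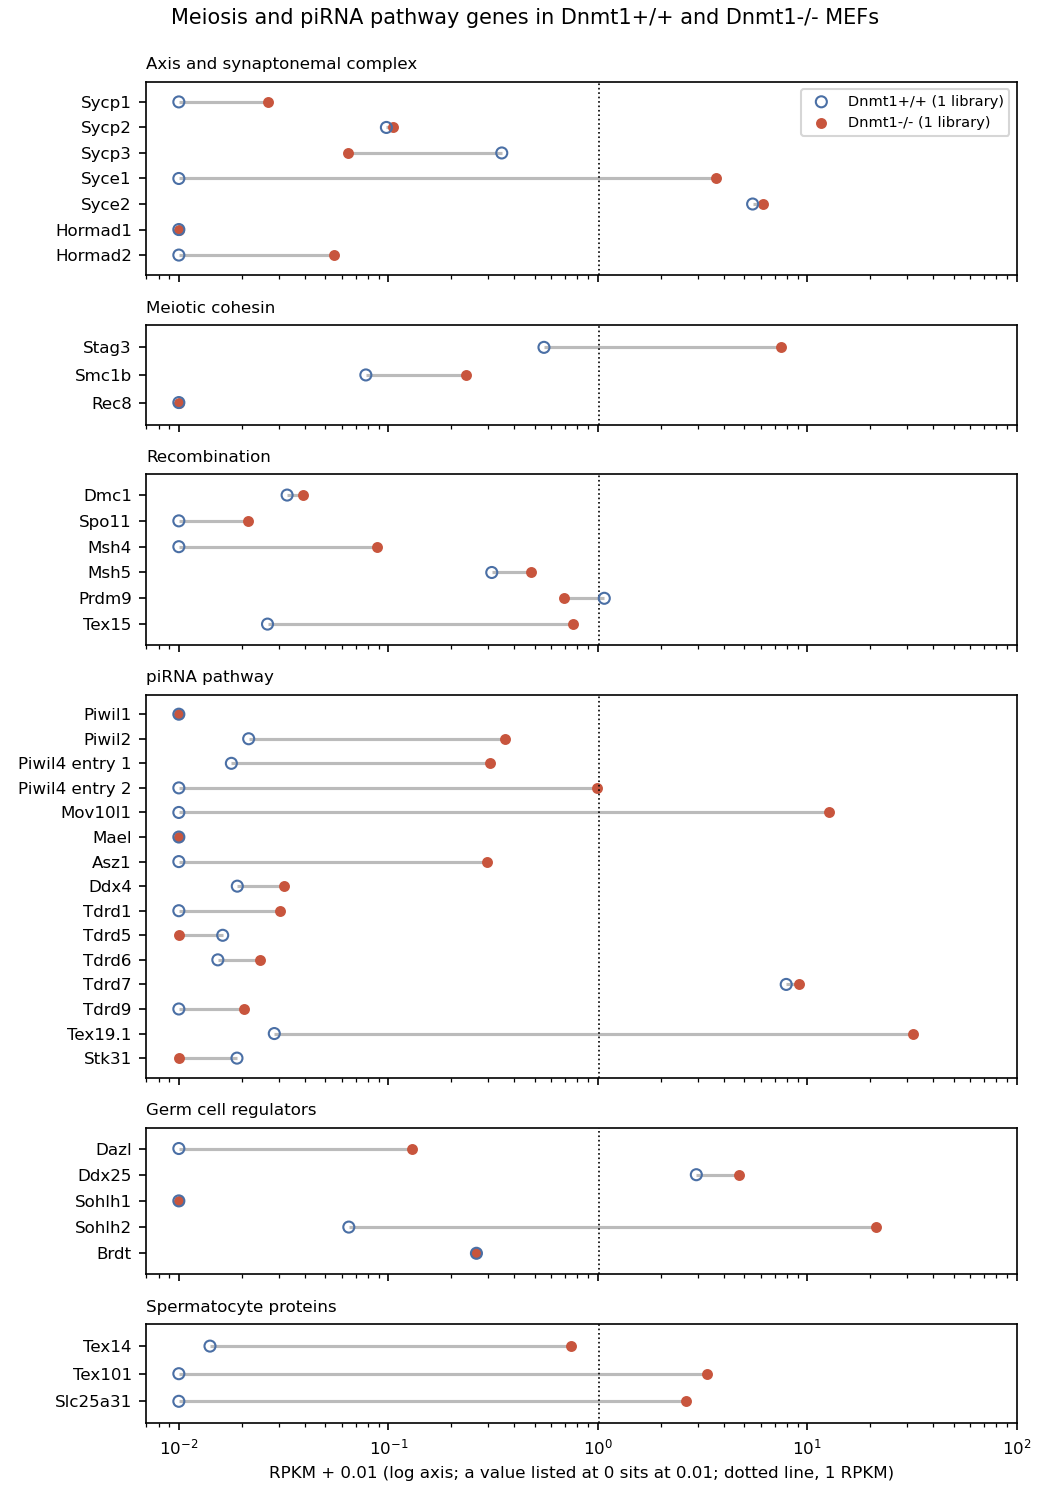
RPKM plus 0.01 on a log axis for the 39 entries in the Dnmt1+/+ library (open blue circles) and the Dnmt1-/- library (filled red circles), arranged by role, with a value listed at 0 drawn at 0.01 and a dotted line at 1 RPKM. The 7 genes called higher cross the dotted line from left to right, the filled circles of the 4 genes within 2-fold lie close to the open ones, and the other genes lie left of the line in both libraries.

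The promoter sequences of these genes were read from RefSeq (build GRCm38.p6), which held a window for 35 of the 39 genes and none for Spo11, Tex15, Piwil2 and Tdrd6. The 250 bases before the transcription start annotated in RefSeq are shown for the 4 genes with the highest RPKM among those called higher. Where transcription starts in these cells was not tested. Hormad1 and Ddx4 are also shown. Both stayed near 0 in both libraries although their promoters are also rich in CpG, the dinucleotide that carries DNA methylation. The sequences are given 5′ to 3′ on the strand of the gene, with each CpG in capitals. The windows are chr11:121145893-121146142 on the plus strand for Tex19.1, chr3:55181794-55182043 on the plus strand for Sohlh2, chr15:88982744-88982993 on the plus strand for Mov10l1, chr5:138280259-138280508 on the plus strand for Stag3, chr3:95559427-95559676 on the plus strand for Hormad1 and chr13:112652311-112652560 on the minus strand for Ddx4.
Tex19.1: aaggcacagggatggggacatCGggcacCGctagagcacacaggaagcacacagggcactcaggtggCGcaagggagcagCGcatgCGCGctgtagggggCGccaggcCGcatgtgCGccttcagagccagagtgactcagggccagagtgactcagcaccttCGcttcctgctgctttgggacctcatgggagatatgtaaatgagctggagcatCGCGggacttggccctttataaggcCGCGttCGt
Sohlh2: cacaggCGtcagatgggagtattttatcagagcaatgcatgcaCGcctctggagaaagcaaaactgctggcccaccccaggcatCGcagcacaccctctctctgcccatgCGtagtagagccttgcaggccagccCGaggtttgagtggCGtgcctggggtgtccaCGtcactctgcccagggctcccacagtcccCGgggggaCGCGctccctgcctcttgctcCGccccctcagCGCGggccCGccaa
Mov10l1: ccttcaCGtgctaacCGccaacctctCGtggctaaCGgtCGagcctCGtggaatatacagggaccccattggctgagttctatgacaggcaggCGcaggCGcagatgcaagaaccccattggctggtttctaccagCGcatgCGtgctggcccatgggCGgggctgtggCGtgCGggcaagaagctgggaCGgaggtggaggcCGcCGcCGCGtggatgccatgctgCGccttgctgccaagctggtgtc
Stag3: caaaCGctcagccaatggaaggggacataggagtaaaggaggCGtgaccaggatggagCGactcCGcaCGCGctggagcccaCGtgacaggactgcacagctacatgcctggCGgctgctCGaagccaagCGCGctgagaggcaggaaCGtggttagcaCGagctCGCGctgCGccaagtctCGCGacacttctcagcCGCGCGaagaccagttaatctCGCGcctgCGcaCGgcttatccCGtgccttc
Hormad1: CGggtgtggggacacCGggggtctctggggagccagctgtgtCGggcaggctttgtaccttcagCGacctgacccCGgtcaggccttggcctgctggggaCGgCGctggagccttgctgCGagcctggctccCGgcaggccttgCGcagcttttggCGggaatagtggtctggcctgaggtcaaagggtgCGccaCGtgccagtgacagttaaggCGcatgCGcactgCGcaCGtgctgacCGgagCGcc
Ddx4: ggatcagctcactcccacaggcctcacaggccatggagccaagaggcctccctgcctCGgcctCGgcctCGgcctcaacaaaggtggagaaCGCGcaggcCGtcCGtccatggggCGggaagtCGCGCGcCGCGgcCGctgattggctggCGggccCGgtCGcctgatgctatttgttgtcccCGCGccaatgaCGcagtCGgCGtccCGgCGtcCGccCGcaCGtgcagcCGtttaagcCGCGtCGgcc

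The 250 bases shown hold 15 CpG sites in Tex19.1, 14 in Sohlh2, 19 in Mov10l1, 26 in Stag3, 19 in Hormad1 and 31 in Ddx4. For genes with several windows in RefSeq the median over the windows was taken. The 35 genes had a median of 16 CpG sites, against 6 for all 27025 genes with a window, and 85.7% of the 35 had at least 10 sites, against 38.3% of all genes. The 7 genes called higher had from 13 to 26 sites with a median of 15, and the 15 genes near 0 with a window had from 4 to 40 with a median of 12. These ranges overlap, and the promoters with the most CpG, those of Tdrd5 with 40 sites and of Ddx25 with 34, belong to genes that were not called higher. The ratio of observed to expected CpG had a median of 0.671 in the 35 genes and of 0.378 in all genes. Among genes with at least 10 sites, these genes were not richer in CpG. The 30 of them had medians of 17 sites and a ratio of 0.731, against 18.5 sites and 0.787 for all 10339 such genes.

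**Figure D2:**
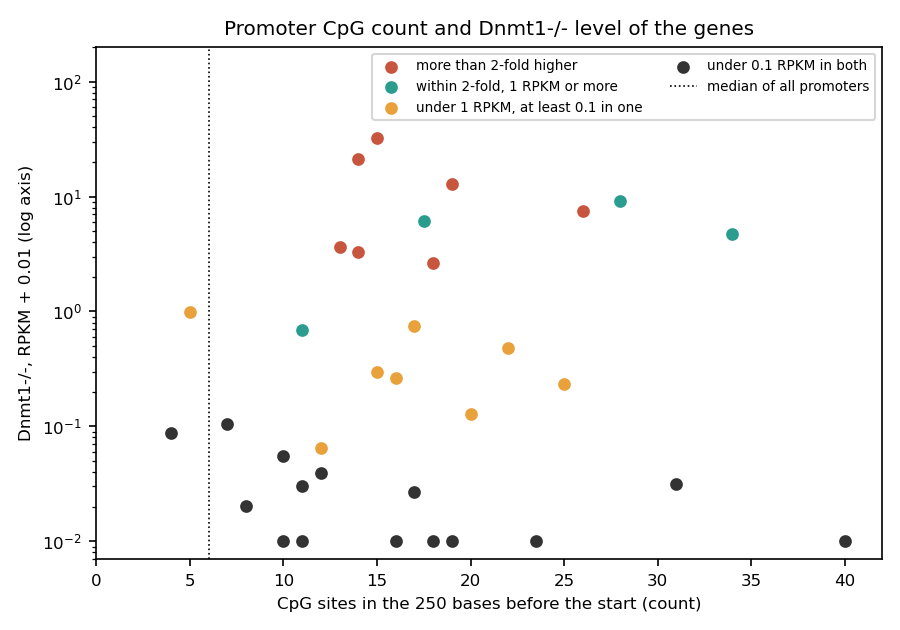
The number of CpG sites in the 250 bases before the annotated transcription start (x axis) and RPKM plus 0.01 in Dnmt1-/- MEFs on a log axis (y axis), for the genes with both an entry and a promoter window. Points are coloured by the pattern of the gene across the 2 libraries, and the dotted line marks the median of 6 sites over all genes. The genes called higher, at 13 to 26 sites, share their range of CpG counts with genes near 0.

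Short motifs were searched on both strands of the same windows. The E box CACGTG, a palindrome that contains a CpG, was found for 15 of the 35 genes (42.9%), against 6.86% of all genes and 10.6% of the 10339 genes with at least 10 CpG sites. It was in the promoters of 3 of the 7 genes called higher, Mov10l1, Stag3 and Slc25a31, and in those of 9 of the 15 genes near 0, Hormad1, Ddx4 and Mael among them. In the printed sequences it reads caCGtg. The E2F motif TTCCCGC was found for 10 of the 35 genes (28.6%), against 4.38% of all genes and 9.21% of those with at least 10 CpG sites, and for 0 of the 7 genes called higher. A match is a description of the letters in the window and not evidence of binding.

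The synaptonemal complex and the chromosome axes contributed 7 genes, of which 1 was called higher. Syce1 encodes a protein of the central element of the complex and lies at chr7:147963128-147973753 on the minus strand of mm9, the build of the deposited loci. It was listed at 0 in Dnmt1+/+ and was at 3.66 RPKM in Dnmt1-/-. Its partner in the central element, Syce2, was at 5.48 RPKM in Dnmt1+/+ and 6.11 in Dnmt1-/-, so that it was present in both lines at like levels. The Syce2 entry shares its locus with Gcdh on the other strand, and it is not stated that reads were counted by strand, so its value is uncertain. Sycp1, the transverse filament that spans the complex, was listed at 0 in Dnmt1+/+ and was at 0.0166 RPKM in Dnmt1-/-. Sycp2, of the lateral element, was at 0.0879 and 0.0951 RPKM. Sycp3, the other lateral element protein, was at 0.338 RPKM in Dnmt1+/+ against 0.0543 in Dnmt1-/-, and its entry spans Chpt1 on the other strand. Hormad1, which marks axes that are not yet paired, was listed at 0 in both libraries, and its relative Hormad2 was at 0 and 0.0449 RPKM. The further central element genes, which belong to the list of other meiosis genes, were under 1 RPKM in Dnmt1-/- MEFs, with Syce3 at 0.0648, Tex12 at 0.207 and Six6os1 at 0.143.

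Of the 3 meiotic cohesin genes, 1 was called higher. Stag3 (chr5:138721724-138753621, plus strand) rose from 0.544 to 7.48 RPKM, a ratio of 13.8. It was the one gene of the 7 called higher that was above 0.1 RPKM in Dnmt1+/+. Smc1b, the meiotic SMC subunit, was at 0.0681 and 0.226 RPKM, and Rec8, the meiotic kleisin, was listed at 0 in both libraries. The somatic relatives of these genes were expressed in both lines. In the Dnmt1-/- library, Stag1 was at 25.5 RPKM and Stag2 at 20.6, so that Stag3 lay below both, and Smc1a was at 101.6 and Rad21 at 159.5. Of these 4, Stag2, an X-linked gene, was called lower, with 46.5 RPKM in Dnmt1+/+. The meiotic subunit that rose was thus detected without the other meiotic subunits at 1 RPKM.

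The 6 genes of meiotic recombination had 0 called higher, but only Prdm9 passed the minimum of 1 RPKM and the others could not be called. Among all genes that passed, 8.47% were called higher, so this count says little about the group. Spo11, which makes the double-strand breaks that start recombination, was listed at 0 in Dnmt1+/+ and was at 0.0113 RPKM in Dnmt1-/-. Dmc1, the meiotic strand exchange protein, was at 0.0229 and 0.0291 RPKM. Msh4 was listed at 0 in Dnmt1+/+ and was at 0.0783 RPKM in Dnmt1-/-, and its crossover partner Msh5 was at 0.302 and 0.469. Prdm9, the histone methyltransferase that sets the sites of recombination, was at 1.06 RPKM in Dnmt1+/+ and 0.684 in Dnmt1-/-, just past the minimum of 1 and within 2-fold. Tex15, which acts in meiotic recombination and in transposon silencing, differed most in this group, at 0.0165 RPKM in Dnmt1+/+ against 0.753 in Dnmt1-/-, and stayed under 1 RPKM. Its entry starts at position 34681016 of chromosome 8, while the gene starts at 34627210 in GENCODE, so the value may not cover the whole gene.

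The piRNA pathway contributed 14 genes, of which 2 were called higher. Tex19.1, which represses retrotransposons in germ cells and placenta, lies at chr11:121007336-121009627 on the plus strand. It had the highest Dnmt1-/- value of all 38 genes, with 0.0186 RPKM in Dnmt1+/+ and 32.1 in Dnmt1-/-, a change of 8.08 on the log2(RPKM + 0.1) scale. By this change it ranked 16 among the 11244 genes, and its level in Dnmt1-/- MEFs was above that of 78.8% of them. Its neighbouring paralog Tex19.2 was listed at 0 and at 0.339 RPKM, and reads of the 2 copies could be shared. Mov10l1, the RNA helicase that feeds piRNA precursors into the pathway, lies at chr15:88813329-88885582 on the plus strand. It was listed at 0 in Dnmt1+/+ and was at 12.8 RPKM in Dnmt1-/-, rank 28 of all genes. There it lay above its somatic relative Mov10, which was at 9.69 RPKM in Dnmt1+/+ and 8.30 in Dnmt1-/-.

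Each entry of the genes for PIWI proteins stayed under 1 RPKM. Piwil1, known as MIWI, was listed at 0 in both libraries. Piwil2, known as MILI, was at 0.0115 RPKM in Dnmt1+/+ and 0.351 in Dnmt1-/-. Piwil4, known as MIWI2, had one entry at 0.00781 and 0.296 RPKM and another listed at 0 and at 0.976 RPKM, just under the minimum. These entries cover the same locus, and together they were above 1 RPKM in Dnmt1-/-. Piwil2 and both Piwil4 entries would be counted as higher if no minimum were set. Asz1, a scaffold protein of germ granules, was likewise listed at 0 in Dnmt1+/+ and at 0.287 RPKM in Dnmt1-/-.

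The remaining piRNA genes were near 0, with 1 exception. Tdrd7, a Tudor protein that is also made outside the germline, was at 7.93 RPKM in Dnmt1+/+ and 9.15 in Dnmt1-/-. The other Tudor genes differed from it in level by far, since Tdrd1, Tdrd5, Tdrd6 and Tdrd9 had at most 0.0204 RPKM in either library. Mael was listed at 0 in both libraries, and Ddx4, the germ cell helicase also called VASA, was at 0.00901 and 0.0218 RPKM. Stk31, a kinase with a Tudor domain, was at 0.00894 RPKM in Dnmt1+/+ and listed at 0 in Dnmt1-/-.

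Among 5 regulators of germ cell gene expression, 1 was called higher. Sohlh2, a basic helix-loop-helix factor of early germ cells (chr3:54985954-55013879, plus strand), rose from 0.0548 to 21.2 RPKM. The change was 7.10 on the log2(RPKM + 0.1) scale, rank 27 of all genes, and the level in Dnmt1-/- was above that of 69.6% of them. Its partner factor Sohlh1 was listed at 0 in both libraries. Dazl, an RNA-binding protein of germ cells, was listed at 0 in Dnmt1+/+ and was at 0.119 RPKM in Dnmt1-/-. Ddx25, a helicase of the testis, was at 2.94 and 4.74 RPKM, a ratio of 1.61. Brdt, the testis member of the BET bromodomain family, was at 0.253 RPKM in Dnmt1+/+ against 0.252 in Dnmt1-/-, and its relatives Brd2 and Brd3 were between 14.7 and 54.5 RPKM in both libraries.

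The remaining 3 genes with an entry encode other proteins of spermatocytes, and 2 of these were called higher. Tex101, a surface protein of germ cells (chr7:25453031-25457069, minus strand), was listed at 0 in Dnmt1+/+ and was at 3.31 RPKM in Dnmt1-/-. Slc25a31, the ADP/ATP carrier of testis mitochondria (chr3:40512793-40530016, plus strand), was listed at 0 in Dnmt1+/+ and was at 2.62 RPKM in Dnmt1-/-. The Slc25a31 value was far below those of the somatic carriers, as Slc25a4 was at 452.7 and Slc25a5 at 118.3 RPKM in the same library. Tex14, needed for the bridges between germ cells, was at 0.00408 RPKM in Dnmt1+/+ against 0.738 in Dnmt1-/-, and so stayed under 1.

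Over the 14 somatic relatives that were read beside these genes, 0 were called higher, 1 was called lower and 13 stayed within 2-fold. Among all genes that passed the minimum, 8.47% were called higher and 10.9% lower, and 14 genes are too few to set apart from that background. Mismatch repair relatives of Msh4 and Msh5 were among the 13, with Msh3 at 6.45 and 7.66 RPKM and Msh6 at 52.8 and 54.4. Ddx3x, a relative of the helicase Ddx4, was at 99.0 and 88.3 RPKM, and Eif2c2, the Argonaute relative of the PIWI proteins, was at 12.4 and 11.8. Rpl10, the X-linked parent of Rpl10l, was at 279.4 RPKM in Dnmt1+/+ and 160.1 in Dnmt1-/-.

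**Figure D3:**
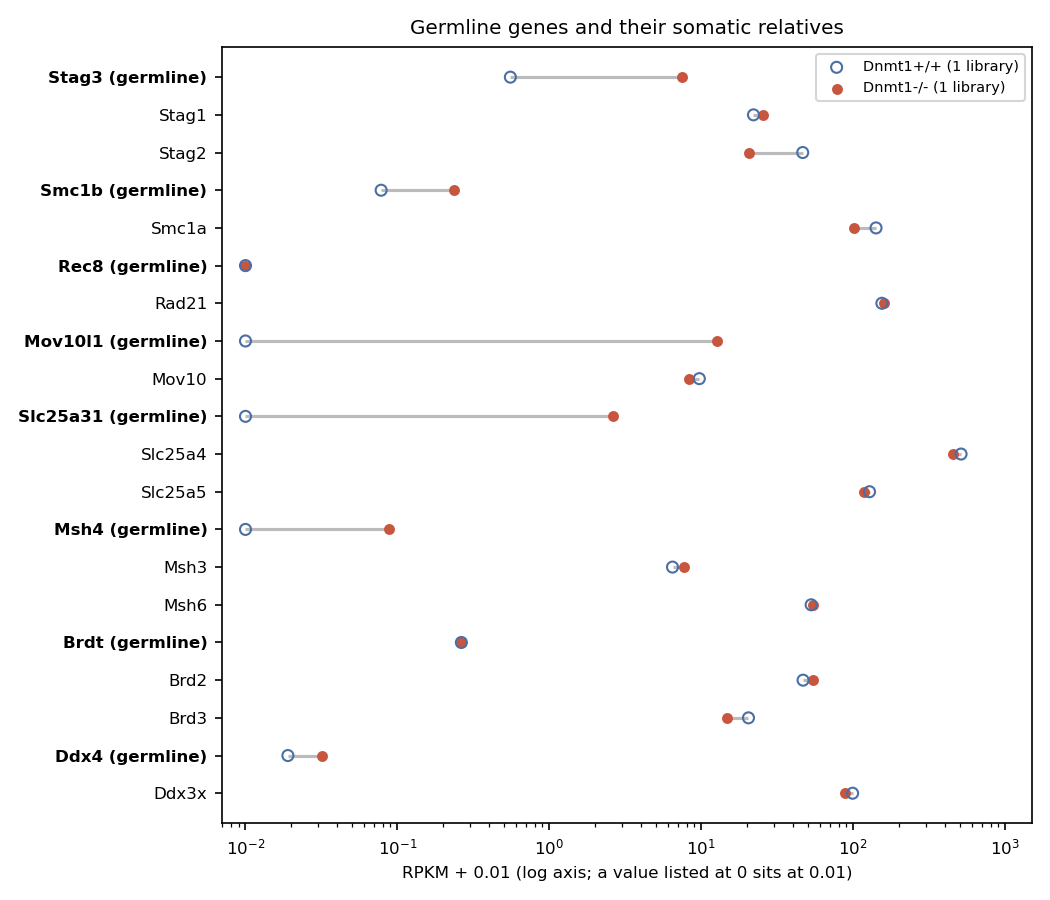
RPKM plus 0.01 on a log axis in the Dnmt1+/+ library (open blue circles) and the Dnmt1-/- library (filled red circles) for 8 germline genes (bold) and, under each, somatic relatives, with a value listed at 0 drawn at 0.01. Mov10l1 is the one germline gene that passes its somatic relative in Dnmt1-/- MEFs (12.8 against 8.30 RPKM), and Stag2 is the one relative called lower.

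Taking the entries under 1 RPKM in both libraries, 28 in number, 7 were more than 2-fold higher on the log2(RPKM + 0.1) scale and 1, Sycp3, was more than 2-fold lower. The 7 entries are those of Tex15, Tex14, Piwil2, Asz1, Dazl and the 2 entries of Piwil4. With no minimum on RPKM, 14 entries with status OK were thus higher and 1 lower, where 9.92% of all 14865 such entries that have a symbol were higher and 11.1% lower. Over the 39 entries without regard to size, 29 had a larger value in Dnmt1-/-, 5 a smaller one, and 5 were listed at 0 in both. Of the 29, 13 were listed at 0 in Dnmt1+/+ and could not have had a smaller value. Many of these differences are small fractions of 1 RPKM. The same count was not made over all entries, so it does not show a shift of the group. The genes listed at 0 in both were Hormad1, Rec8, Piwil1, Mael and Sohlh1. For the 28 entries with status OK and no minimum, the median log2 change was 1.04, against -0.09 for all such genes. These medians are not like for like. Of the 39 entries, 31 were under 0.1 RPKM in Dnmt1+/+ and could hardly fall on this scale, while 11244 of the 14865 entries had at least 1 RPKM in one library. The rule on status also leaves out the 11 NOTEST entries, which were near 0 in both libraries.

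**Figure D4:**
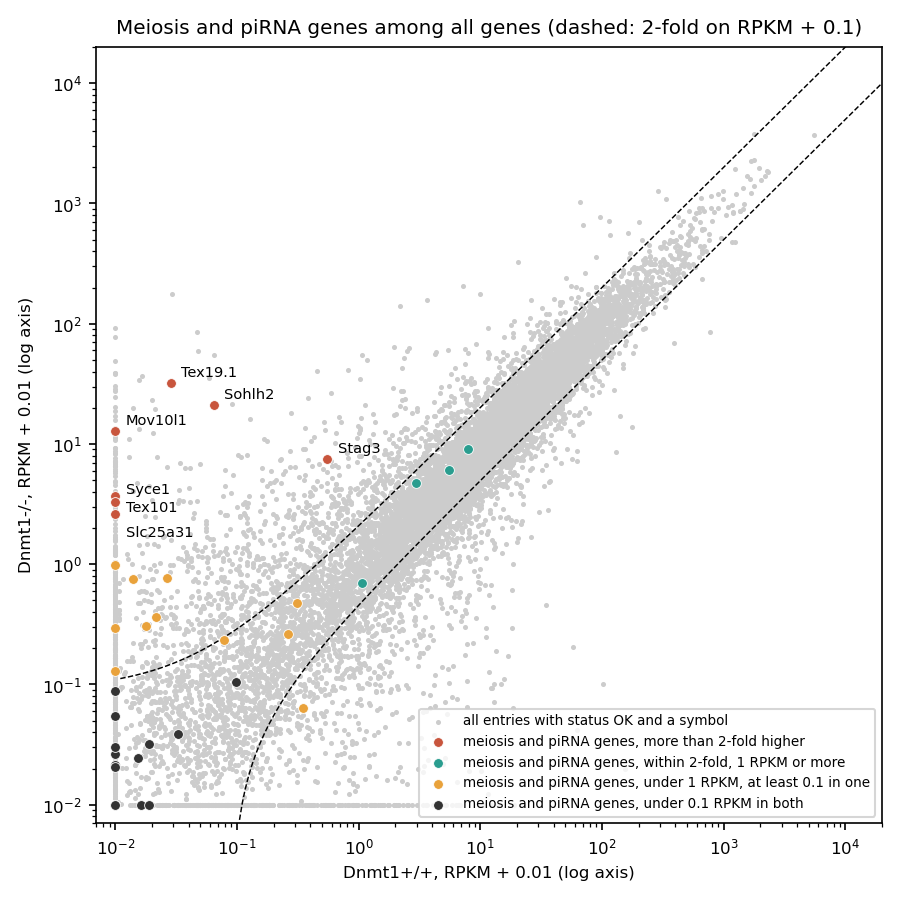
RPKM plus 0.01 in the Dnmt1+/+ library (x axis) and the Dnmt1-/- library (y axis), both log axes, for all 14865 named entries that Cuffdiff gave status OK (grey) and all 39 entries of the meiosis and piRNA genes, also those with another status, coloured by pattern. Dashed lines mark a 2-fold difference on the RPKM + 0.1 scale, and the 7 named genes lie above the upper line.

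The 7 genes called higher lie on 5 chromosomes, and the nearest gene on either side of each was read. Of the 14 neighbours, 3 passed the minimum, of which 1 was called higher and 0 lower, against 8.47% and 10.9% of all genes that passed. This count is too small to set apart from that background. The neighbour called higher was Gpc2, whose entry ends 559 bp before Stag3 and which rose from 2.27 to 7.20 RPKM. The 11 that did not pass were listed under 1 RPKM in both libraries and could not be called, among them Dclk1 beside Sohlh2, which had status FAIL and so no usable value. For Tex19.1, Tex19.2 at a distance of 27345 bp was listed at 0 and at 0.339 RPKM, and Uts2r at 11958 bp at 0 and 0.130. For Mov10l1, Mlc1 at a distance of 4346 bp was at 0.00822 and 0.140 RPKM and Panx2 at 4574 bp was at 0.0186 and 0.0217. With no minimum, Tex19.2, Uts2r and Mlc1 would also be more than 2-fold higher, and no neighbour would be more than 2-fold lower. With no minimum, 9.92% of all named entries with status OK were higher. For Sohlh2, A730037C10Rik at 9097 bp was at 0.0297 and 0.119 RPKM. For Slc25a31, Intu at 4131 bp was at 1.19 and 0.590 RPKM and Hspa4l at 19448 bp was at 12.4 and 12.6.

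**Figure D5:**
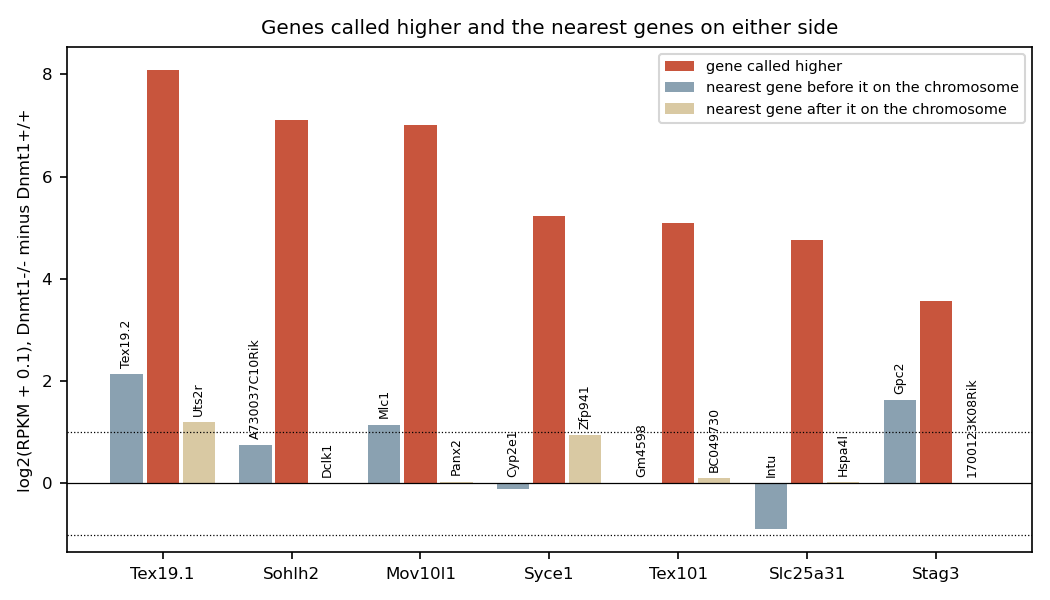
The change from Dnmt1+/+ to Dnmt1-/- on the log2(RPKM + 0.1) scale for the 7 genes called higher (red bars) and for the nearest gene before (blue) and after (tan) each of them on the chromosome, with dotted lines at 2-fold. Gpc2 beside Stag3 is the one neighbour that was called higher, and other bars past the dotted line belong to genes under 1 RPKM.

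Other genes of both pathways were read from further lists. Of 17 other piRNA pathway genes, 16 had an entry and 6 of these passed the minimum, of which 4 were called higher and 0 lower, where 8.47% of all genes that passed were called higher. This list is wider than its name, as it holds Nanos2, Nanos3 and Dnd1, all under 1 RPKM in both libraries. Nanos2 and Nanos3 are also on the lists of germ cell markers. Morc1, a transposon silencing factor of the male germline, was listed at 0 in Dnmt1+/+ and was at 9.29 RPKM in Dnmt1-/-. Gpat2, a mitochondrial protein linked to piRNA production, was listed at 0 and at 7.27 RPKM, Fkbp6, a co-chaperone, at 0 and 4.57, and Gtsf1, a partner of PIWI proteins, at 0 and 2.14. Of 11 entries on that list under 0.1 RPKM in Dnmt1+/+, these 4 reached 1 RPKM, against 2.36% of all such entries. Tdrkh and Mybl1 were within 2-fold, at 15.9 and 10.1 RPKM and at 2.40 and 1.90 RPKM. Of 33 other meiosis genes, 31 had an entry and 9 of these passed the minimum, of which 2 were called higher and 0 lower. Rec114, which acts with Spo11, rose from 0.110 to 2.97 RPKM under its older symbol 2410076I21Rik, and Zcwpw1, a reader of histone methylation, rose from 11.2 to 25.7. Of 20 entries on that list under 0.1 RPKM in Dnmt1+/+, 0 reached 1 RPKM, where the share of 2.36% would make fewer than 1, and Ccnb1ip1 came closest, listed at 0 and at 0.892. Rec114, at 0.110 RPKM in Dnmt1+/+, lay just above the limit of 0.1 and so is not in this count. Other limits were not tried for this list. Stra8, which starts meiosis, was listed at 0 in both libraries.

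Most markers of germ cells and of other gonadal cells were under 1 RPKM in both libraries, with Gfra1, Uchl1 and Hspa1l as the exceptions. Of 9 oocyte markers with an entry, 0 reached 0.1 RPKM in either library. Of 10 markers of primordial germ cells and pluripotent cells, 0 reached 1 RPKM, and their summed RPKM was 0.968 in Dnmt1+/+ and 1.26 in Dnmt1-/-. These markers moved in both directions from Dnmt1+/+ to Dnmt1-/-. Dppa2 rose from 0.0114 to 0.401 RPKM, and Dppa4 from a value listed at 0 to 0.387. Nanog, whose entry also names Nanogpd, fell from 0.482 to 0.078 RPKM, and Nanos3 from 0.461 to 0.339. The remaining 6 were under 0.1 RPKM in both libraries. Of 10 spermatogonial markers, 8 were listed at 0 in both libraries, while Gfra1 rose from 0.797 to 2.38 RPKM and Uchl1 fell from 17.0 to 2.46, and both are also expressed outside the germline. Of 11 spermatid markers with an entry, Hspa1l, next to other heat shock genes, rose from 4.41 to 14.3 RPKM and the other 10 were under 1 RPKM. Of 6 Sertoli cell markers with an entry, 0 reached 1 RPKM, with a summed RPKM of 0.121 in Dnmt1+/+ and 0.136 in Dnmt1-/-.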

How the data were processed

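Messenger RNA of 1 Dnmt1+/+ and 1 Dnmt1-/- MEF library was measured by strand-specific mRNA-seq. The table of RPKM values, 1 per library and entry with a status, was made by the authors with Cuffdiff after mapping (TopHat, build mm9) and assembly of transcripts (Cufflinks). Program versions, and any scaling between libraries beyond mapped reads, are not given in the sources used here. The columns are named for wild-type and knock-out, which the paper defines as Dnmt1+/+ and Dnmt1-/- MEFs. The study states the mapped reads of each library, but the deposited RPKM values carry neither read counts nor the transcript lengths used, so no counting interval is given.

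Entries were matched by gene symbol, and for the further lists also by older symbols. Locus starts were raised by 1 to count from 1, after which 22 of 39 starts equalled those of GENCODE. Changes were computed on the log2(RPKM + 0.1) scale from the deposited values, with a minimum of 1 RPKM and a 2-fold threshold. All listed genes are accounted for. Some somatic relatives are not reported here. Those named with values, and the further lists, follow a written rule, and the neighbouring genes, the limit of 0.1 RPKM for silent genes, the summed RPKM and the 6 printed promoters were chosen after values were seen. The genes and lists were chosen with earlier results of these data known. The calling rule was run on simulated data, which is a check of the rule and not of the calls made here. The listed meiosis and piRNA genes called higher were all under 1 RPKM in Dnmt1+/+. Whether calls on such low genes are reliable was not tested. Other pseudocounts, minimums, thresholds, centring and statuses were tried. Python 3.11.15, numpy 2.4.6, pandas 2.3.3 and matplotlib 3.10.9 were used.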

Additional observations from a re-analysis of the deposited data

How the results depend on the processing

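With 1 library per genotype no replicate could be left out and no test between the genotypes was made. No paired analysis was possible because each genotype has 1 library. The count of 7 genes called higher was 7 with a pseudocount of 1 or 0.01, a mean RPKM of at least 1, the median change subtracted, a 4-fold threshold or entries of any status, and 8 with a 1.5-fold threshold. The count called lower was 0 in each of these settings. With no filter on low RPKM, 14 entries were higher and 1 lower, and the other meiosis genes called higher went from 2 to 5. The 4 other piRNA pathway genes called higher became 5 without the filter, and the counts of both further lists were the same with either pseudocount, with a mean RPKM of at least 1 and with the median change subtracted. Other thresholds and statuses were not run for these lists. The median log2 change of the 11 entries that passed, 4.77, is raised by the minimum itself, which the 7 genes called higher passed through Dnmt1-/- alone. It was 2.11 with a pseudocount of 1, 8.04 with a pseudocount of 0.01, 1.04 with no filter on low RPKM, 4.93 with a mean RPKM of at least 1 and 4.91 with the median change of all genes subtracted. It thus depends on the pseudocount, since many of the genes are listed at 0 in Dnmt1+/+. The 6 genes that went from under 0.1 to at least 1 RPKM were 4 with a limit of 0.01 RPKM in Dnmt1+/+, 6 with a limit of 0.5, 9 with at least 0.5 RPKM in Dnmt1-/- and 6 with at least 2, settings chosen after seeing the data.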
